A study of Mus musculus with 16 samples.

Results

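Myogenic factors and genes of the denervation response were examined as a group of 9 genes: Myod1, Myog, Myf5 and Myf6, which make up the MyoD family, with Pax7, Runx1, Ncam1, Gadd45a and Hdac4. Members were taken as the rows of the deposited tables whose gene name was 1 of these 9, and all 9 were found among the 21011 genes of the tibialis anterior (TA) muscle table and the 38933 genes of the cortical bone table. Female C57BL/6 mice, 18 months old, received either BAY2416964 (BAY), an orally active antagonist of the aryl hydrocarbon receptor, or its vehicle (VEH). The dose of BAY was 30 mg/kg by oral gavage, on 5 days in each of 8 weeks, and VEH mice received the ethanol, Solutol and water mixture that carries the drug, so every mouse was dosed by gavage. RNA-seq was performed on 1 TA per mouse and on bone shafts that had been digested with collagenase after marrow stromal cells were isolated, with 4 BAY-treated and 4 VEH-treated mice per tissue. All mice were aged and of 1 sex, and no young or denervated muscle was sequenced here.

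MyoD family proteins are basic helix-loop-helix transcription factors that bind the E-box and switch on the skeletal muscle programme, while Pax7 marks the satellite cells, the stem cells that lie against the muscle fibre. When a muscle loses its nerve, the fibres reactivate part of this programme, and Myog, Runx1, Ncam1, Gadd45a and Hdac4 are classically raised. Hdac4 represses transcription with Mef2 as its partner and acts upstream of Myog and Gadd45a in denervated fibres, and loss of innervation is also part of muscle aging.

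In the TA muscle, none of the 9 genes differed between BAY-treated and VEH-treated mice beyond the spread between mice. At an unadjusted P value under 0.05 in limma, 0 of the 9 genes passed, against 9.79% of all genes in the table, and with limma voom on the recovered reads 0 passed as well. The values of the groups overlapped for each of the 9 genes, and 5.73% of all genes had no overlap between the groups. With so few genes, a count of 0 does not set them apart from either share. The median log2 fold change of the 9 genes (BAY minus VEH, in log2 units of CPM with the deposited offset, where CPM is a gene's reads scaled to a common library total) was 0.15, against 0.06 over all genes. It was 0.28 without VEH replicate 2 and 0.10 without VEH replicate 1, where all genes had 0.08 and -0.01. At the unadjusted threshold, some relatives of Gadd45a and Hdac4 and several genes of a satellite cell list were higher in BAY-treated mice. Pax7 was not among them. With Benjamini-Hochberg adjustment over all muscle genes, limma left none under 0.05, and 0.184 was the smallest adjusted P value.

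The number of reads counted on genes, recovered from the steps between low values, ranged from 6131949 to 9262355 per library in muscle and from 930307 to 6951895 in bone. A value of 3 reads, taken as the floor, was 0.324 to 0.489 CPM in muscle and 0.432 to 3.22 CPM in bone, and floors cover counting error only. Each library was 1 mouse. The 12 skeletal muscle fibre markers were all present in muscle, summing to 122519 to 206098 CPM. One muscle library, VEH replicate 3, stood apart in other cell types, and its column carries a name with a word for replacement. Its 10 adipocyte markers summed to 776 CPM against 112 to 165 CPM in the other 7 libraries, its 8 fibroblast markers to 366 CPM against 86.8 to 133 CPM, and its 10 Schwann cell markers to 74.5 CPM against 24.8 to 47.3 CPM. Without that mouse, still 0 of the 9 genes passed.

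The 4 genes of the MyoD family share a DNA-binding domain but lie at 3 places in the genome, and the windows just before their start sites are shown because their levels in the TA differed so widely. On GRCm39, the build of the files, Myod1 (ENSMUSG00000009471) lies on chromosome 7 from 46025898 to 46028523 and Myog (ENSMUSG00000026459) on chromosome 1 from 134217727 to 134220286, both on the plus strand. Myf5 (ENSMUSG00000000435) and Myf6 (ENSMUSG00000035923) are neighbours on the minus strand of chromosome 10, from 107318769 to 107321995 and from 107328714 to 107330598. The 250 bases before each GENCODE M39 canonical start site were read 5′ to 3′ from GRCm39 at chr7:46025620-46025869 for Myod1, chr1:134217457-134217706 for Myog, chr10:107321996-107322245 for Myf5 and chr10:107330657-107330906 for Myf6. Capitals mark E-boxes (CANNTG) and, in Myf6, a match to the MEF2 consensus, both searched on both strands.
Myod1: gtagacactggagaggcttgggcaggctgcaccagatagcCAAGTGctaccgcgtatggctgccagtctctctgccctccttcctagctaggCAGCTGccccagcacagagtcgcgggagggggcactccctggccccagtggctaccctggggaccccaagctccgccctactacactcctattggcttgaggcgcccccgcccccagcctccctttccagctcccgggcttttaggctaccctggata
Myog: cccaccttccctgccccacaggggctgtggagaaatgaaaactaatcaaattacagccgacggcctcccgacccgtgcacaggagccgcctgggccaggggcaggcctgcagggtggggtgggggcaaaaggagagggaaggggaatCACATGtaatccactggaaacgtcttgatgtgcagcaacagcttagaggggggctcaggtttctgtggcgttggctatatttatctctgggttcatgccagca
Myf5: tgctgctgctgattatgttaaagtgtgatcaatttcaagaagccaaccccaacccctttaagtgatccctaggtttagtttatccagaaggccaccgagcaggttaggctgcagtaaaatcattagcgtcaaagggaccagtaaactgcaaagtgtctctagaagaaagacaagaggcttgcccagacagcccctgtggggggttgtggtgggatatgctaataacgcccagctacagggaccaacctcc
Myf6: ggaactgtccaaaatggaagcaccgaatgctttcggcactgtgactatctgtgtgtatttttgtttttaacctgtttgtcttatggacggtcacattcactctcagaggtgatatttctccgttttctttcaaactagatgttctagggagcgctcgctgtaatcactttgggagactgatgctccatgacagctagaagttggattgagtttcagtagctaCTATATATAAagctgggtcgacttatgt
The Myod1 window held 2 E-boxes, the Myog window 1, and the windows of Myf5 and Myf6 none. Across all 9 members, 6 had an E-box in this window, a share near the 64.8% of 21770 protein-coding genes whose window held one. The MEF2 match of Myf6 lay 28 to 19 bases before the start site and overlapped a TATA box (TATAAA) at 23 to 18 bases. These motifs were in 2.79% and 11.9% of all windows, and in 1 of the 9 members each. A match describes letters only and is not evidence of a bound factor.

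Per kilobase of exon, Myf6 was the most abundant of the 9 genes in the TA, at a mean of 25.9 CPM per kb over the 8 libraries. Gadd45a followed at 9.03, Myod1 at 8.57 and Hdac4 at 5.23 CPM per kb, then Myog at 1.9, Ncam1 at 0.67, Runx1 at 0.449, Pax7 at 0.318 and Myf5 at 0.265 CPM per kb. Gadd45a and Myod1 could not be ordered, with Gadd45a above Myod1 in 4 of 8 libraries, and the ranges of Ncam1, Runx1, Pax7 and Myf5 each overlapped the next. The Hdac4 and Myod1 ranges also overlapped, but Myod1 was above Hdac4 within all 8 libraries. Within the MyoD family the order was the same in every mouse: per kilobase, Myf6 exceeded Myod1 by 2.25 to 4.11 times, Myod1 exceeded Myog by 3.65 to 5.31 times, and Myog exceeded Myf5 by 3.82 to 30.2 times. The neighbours Myf6 and Myf5 had the highest and the lowest mean per kilobase of the 9 genes, although Myf5 could not be told from Pax7.

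**Figure D1:**
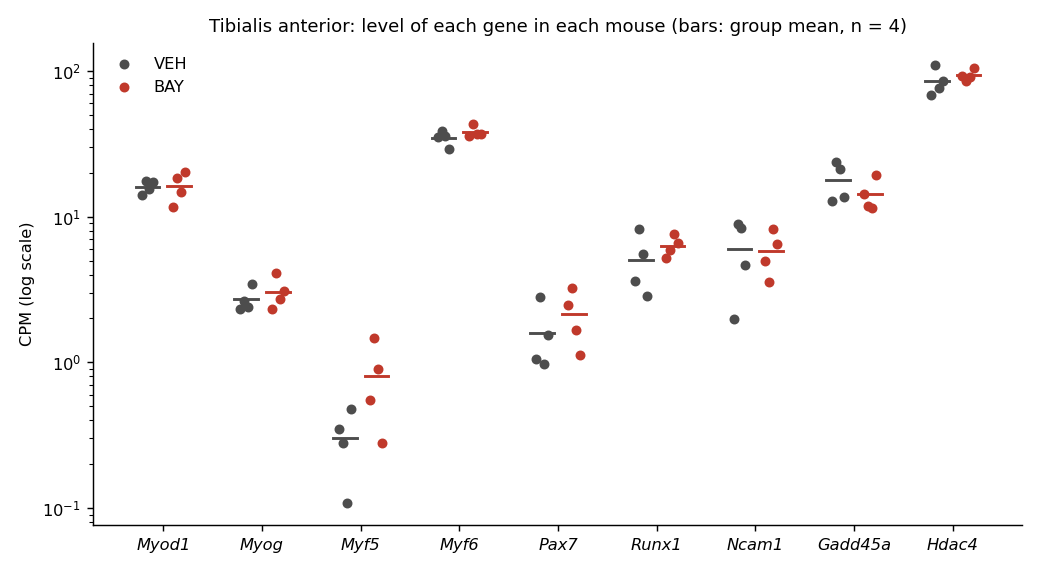
Level of each of the 9 genes in CPM (log axis) in the TA of 4 VEH-treated (grey) and 4 BAY-treated (red) mice, 1 point per mouse, with bars at the group means. The red and grey points of each gene overlap, and levels run from 0.108 CPM (Myf5, VEH replicate 3) to 111 CPM (Hdac4, VEH replicate 2).

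Myod1, the founding member of the family, which commits cells to the muscle lineage, measured 14, 17.6, 15.4 and 17.4 CPM in VEH replicates 1 to 4 and 11.7, 18.6, 14.7 and 20.3 CPM in BAY replicates 1 to 4. The BAY values enclosed the VEH values on both sides, and the means were 16.1 ± 1.72 CPM in VEH and 16.3 ± 3.88 CPM in BAY mice (SD, n = 4 each). The log2 fold change was -0.01, with a 95% interval from -0.39 to 0.38 (adjusted P = 0.998 in limma). Its direction turned with the mouse left out, from -0.12 to 0.14.

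Myog, which drives the fusion and differentiation of myoblasts and is the family member most firmly tied to denervation, stood well below Myf6 and Myod1. It measured 2.33, 2.65, 2.38 and 3.46 CPM in VEH and 2.34, 4.08, 2.71 and 3.09 CPM in BAY mice, from 17 to 29 reads per library. The highest value, BAY replicate 2, lay above all VEH values while the other 3 BAY values lay among them. The log2 fold change was 0.16 with a 95% interval from -0.46 to 0.78 (unadjusted P = 0.58 in limma, exact permutation P = 0.429, two-sided). An exon of Gm32221 shares bases with Myog, and whether strand was used in the counting is not given in the sources used here.

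Myf6, also known as Mrf4, is the family member that adult fibres keep, and it had the smallest standard error of the 9 genes, 0.13 on the log2 scale. It measured 35.3, 39, 35.8 and 29.3 CPM in VEH and 35.9, 43.4, 37.3 and 36.9 CPM in BAY mice. Only BAY replicate 2 lay above the VEH range, and the log2 fold change was 0.14 with a 95% interval from -0.13 to 0.41 (unadjusted P = 0.284 in limma).

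Myf5, the earliest family member in development and in adults a gene of satellite cells and muscle spindles, was at the floor of detection. Its reads numbered 3, 2, 1 and 4 in VEH replicates 1 to 4 and 4, 9, 7 and 2 in BAY replicates 1 to 4, or 0.108 to 0.477 CPM in VEH and 0.28 to 1.47 CPM in BAY mice. In 3 of 4 BAY mice the level was above the highest VEH value, and in BAY replicate 4 it was within the VEH range. Pooled over mice, 22 reads in BAY against 10 in VEH gave a ratio of 2.6 per read of depth, with a 95% counting interval from 1.18 to 6.15 (exact Clopper-Pearson) that leaves out the spread between mice. With that spread, the log2 fold change of 1.34 had a 95% interval from -0.48 to 3.15 (unadjusted P = 0.137 in limma, exact permutation P = 0.114, two-sided). With log2(CPM + 1) in place of the small deposited offset it was 0.43, with an unadjusted P value of 0.0439 in limma, so the side of the threshold on which Myf5 fell rested on this choice.

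Pax7 (ENSMUSG00000028736, chromosome 4, 139464373 to 139560839), the paired-box factor that defines satellite cells, had 8 to 20 reads per library. The VEH mice measured 1.05, 2.79, 0.972 and 1.55 CPM and the BAY mice 2.48, 3.26, 1.68 and 1.12 CPM. BAY replicate 2 had the highest value and VEH replicate 3 the lowest, with the rest of both groups mixed between them. The log2 fold change was 0.45 with a 95% interval from -0.55 to 1.44 (unadjusted P = 0.352 in limma), and it was 0.21 without BAY replicate 2 and 0.76 without VEH replicate 2. In whole muscle, a different number of satellite cells and a different amount of Pax7 RNA per cell cannot be told apart.

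Other genes of satellite cells formed a list of 18 genes without Pax7 and Myf5, chosen with earlier results of these data known. Counts from such a list are a description. At an unadjusted P value under 0.05 in limma, 6 of 18 were higher in BAY-treated mice and 0 were lower, against 6.71% of all genes higher and 3.07% lower, and the median log2 fold change of the list was 0.42 against 0.06 over all genes. The 6 genes were Sdc3, Itga7, Spry1, Cdh15, Peg3 and Notch3. Of the 18 genes, 15 had log2 fold changes above 0, while Vcam1 (-0.45), Cxcr4 (-0.36) and Sdc4 (-0.27) were below it. Mean levels of the 6 genes ran from 14.9 CPM (Cdh15) to 212 CPM (Peg3), against 1.86 CPM for Pax7. Which cells these reads came from was not tested. Sdc3, a cell-surface heparan sulfate proteoglycan, measured 10.8, 15.9, 13.7 and 12.3 CPM in VEH and 20.2, 18.4, 27.1 and 19.2 CPM in BAY mice, without overlap. Its log2 fold change was 0.69 (standard error, SE, 0.17, unadjusted P = 0.00116 and adjusted P = 0.275 in limma). Itga7, the laminin-binding integrin subunit of satellite cells and fibres, measured 34.5, 41.8, 38.7 and 38.2 CPM in VEH and 57.7, 45.5, 54.6 and 46.8 CPM in BAY mice, also without overlap. Its log2 fold change was 0.41 (SE 0.12, adjusted P = 0.319 in limma). Cdh15, or M-cadherin, which joins satellite cells to their fibre, ranged from 11.3 to 14.5 CPM in VEH and from 15.5 to 20 CPM in BAY mice, again without overlap, and its unadjusted P value in limma was 0.0585 without VEH replicate 4 and 0.0707 without BAY replicate 1. Chrdl2 did not overlap either, but rested on 0 to 3 reads in VEH and 3 to 6 reads in BAY mice, and no fold is given at this depth.

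The groups overlapped for the remaining 3 genes. Spry1, an inhibitor of growth factor signalling that holds satellite cells in quiescence, had a log2 fold change of 0.56, Peg3, an imprinted zinc finger gene, of 0.72, and Notch3, a Notch receptor found on satellite cells and vessel walls, of 0.42. Peg3 and Notch3 lost the threshold when single mice were left out, with unadjusted P values of up to 0.159 and 0.158 in limma. Without VEH replicate 3, 5 of the 18 genes were past the threshold in this direction and 0 in the other. Of 8 endothelium markers, 2, Tie1 and Cdh5, were also higher at an unadjusted P value under 0.05, and the sum of all 8 ranged from 251 to 273 CPM in VEH and from 257 to 322 CPM in BAY mice. All 8 fibroblast markers had log2 fold changes below 0 (median -0.43), 2 of them, Lum and Dpt, at an unadjusted P value under 0.05 in limma, and 8 of 10 adipocyte markers were below 0, 1 of them, Plin1, at that threshold. Without VEH replicate 3, 3 of the 8 fibroblast and 6 of the 10 adipocyte markers were below 0, and none of either list passed, while Tie1 and Cdh5 did. The part of these markers in the result was not tested.

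**Figure D2:**
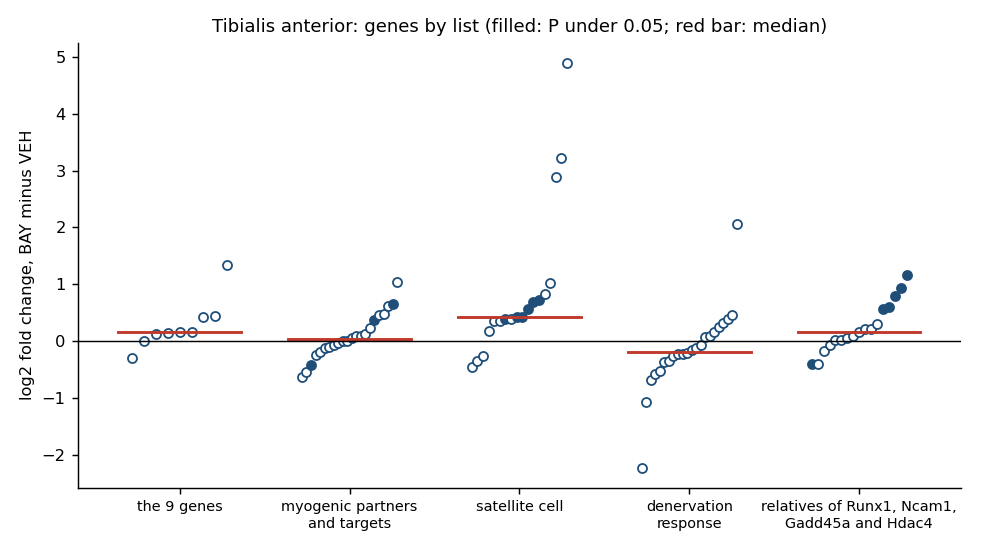
Log2 fold change of BAY against VEH in the TA for the 9 genes and for the measured genes of 4 lists, 1 point per gene, filled where the unadjusted P value in limma was under 0.05, with red bars at the medians. Filled points are absent from the 9 genes and the denervation list, whose medians were 0.15 and -0.19, and the 3 highest open points of the satellite cell list are genes listed at 0 in some libraries, for which the small offset makes differences large.

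Partners, inhibitors and targets of the MyoD family formed a second list of 22 genes. Of these, 2 were higher and 1 was lower at an unadjusted P value under 0.05 in limma, against 6.71% and 3.07% of all genes. The list had a median log2 fold change of 0.03 against 0.06 over all genes. This list median changed sign with single mice left out, from -0.07 without VEH replicate 4 to 0.18 without VEH replicate 3. All genes had 0.02 and 0.12 in these fits. Id1, which sequesters the E proteins that MyoD factors need to bind DNA, measured 3.49, 3.76, 4.64 and 3.94 CPM in VEH and 5.92, 6.2, 5.93 and 6.59 CPM in BAY mice. The groups did not overlap, and the log2 fold change was 0.64 (SE 0.20, adjusted P = 0.334 in limma). Tcf3, which encodes such E proteins, had a log2 fold change of 0.38 (unadjusted P = 0.0456 in limma) and lost the threshold under 8 of the other settings that kept all mice. Mstn, or myostatin, the secreted inhibitor of muscle growth, measured 24, 25.4, 24.6 and 22.3 CPM in VEH and 20, 20.1, 19.1 and 13.3 CPM in BAY mice. All 4 BAY values lay below all VEH values, and the log2 fold change was -0.43 (SE 0.15, adjusted P = 0.395 in limma). The Mef2 genes of the list, Mef2a, Mef2c and Mef2d, did not pass.

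Runx1 (ENSMUSG00000022952, chromosome 16, 92398354 to 92623037), a runt-domain factor that protects denervated fibres from wasting, measured 3.61, 8.23, 5.51 and 2.86 CPM in VEH and 5.23, 5.87, 7.61 and 6.59 CPM in BAY mice. All 4 BAY values lay inside the VEH range, which was set by VEH replicate 2 at the top and VEH replicate 4 at the bottom. The log2 fold change was 0.43 with a 95% interval from -0.21 to 1.07 (unadjusted P = 0.172 in limma). Without VEH replicate 2 it was 0.70, with an unadjusted P value of 0.023 in limma, and without VEH replicate 4 it was 0.20 (unadjusted P = 0.499), so 1 mouse decided its side of the threshold.

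Ncam1 (ENSMUSG00000039542, chromosome 9, 49413436 to 49710225) is the neural cell adhesion molecule that spreads over the fibre surface after nerve loss. Schwann cells and satellite cells also make it. Among the members with a mean of at least 5 CPM, it varied most within the VEH group. It measured 1.98, 8.92, 8.31 and 4.65 CPM in VEH and 4.95, 3.59, 8.26 and 6.45 CPM in BAY mice, a standard deviation of 1.00 on the log2 scale among VEH mice. The BAY values lay inside the VEH range, and the log2 fold change was 0.12 with a 95% interval from -0.78 to 1.02 (unadjusted P = 0.782 in limma). The Schwann cell marker sums of the same mice were 24.8, 34.3, 74.5 and 31.7 CPM in VEH and 45.4, 30, 47.3 and 35.5 CPM in BAY, and their part in the Ncam1 level was not tested. Leaving out VEH replicate 1, the lowest in Ncam1, turned the log2 fold change to -0.34. Part of the exon sequence of Runx1 is shared with Gm26626 and part of that of Ncam1 with Gm11149.

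Gadd45a (ENSMUSG00000036390, chromosome 6, 67012080 to 67014441), a growth arrest gene that Hdac4 and Atf4 induce in atrophying fibres, was the member with the lowest fold change. It measured 12.8, 23.6, 21.2 and 13.7 CPM in VEH and 14.3, 11.9, 11.4 and 19.4 CPM in BAY mice. The BAY values of replicates 2 and 3 lay below the VEH range and the other 2 inside it. The log2 fold change was -0.30 with a 95% interval from -0.79 to 0.18 (unadjusted P = 0.198 in limma, exact permutation P = 0.257, two-sided). Its reads included fractions, such as 109.9 in VEH replicate 1, as reads divided between genes leave, and E230016M11Rik shares exon bases with it.

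Hdac4 (ENSMUSG00000026313, chromosome 1, 91856501 to 92123421), the class IIa histone deacetylase that carries the denervation signal to the nucleus, had the most reads of the 9 genes, 526 to 793 per library. It measured 68.3, 111, 76.5 and 86.2 CPM in VEH and 92.3, 85.8, 91.2 and 105 CPM in BAY mice. All BAY values lay inside the VEH range, with 0.15 as log2 fold change and a 95% interval from -0.16 to 0.47 (unadjusted P = 0.322 in limma).

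**Figure D3:**
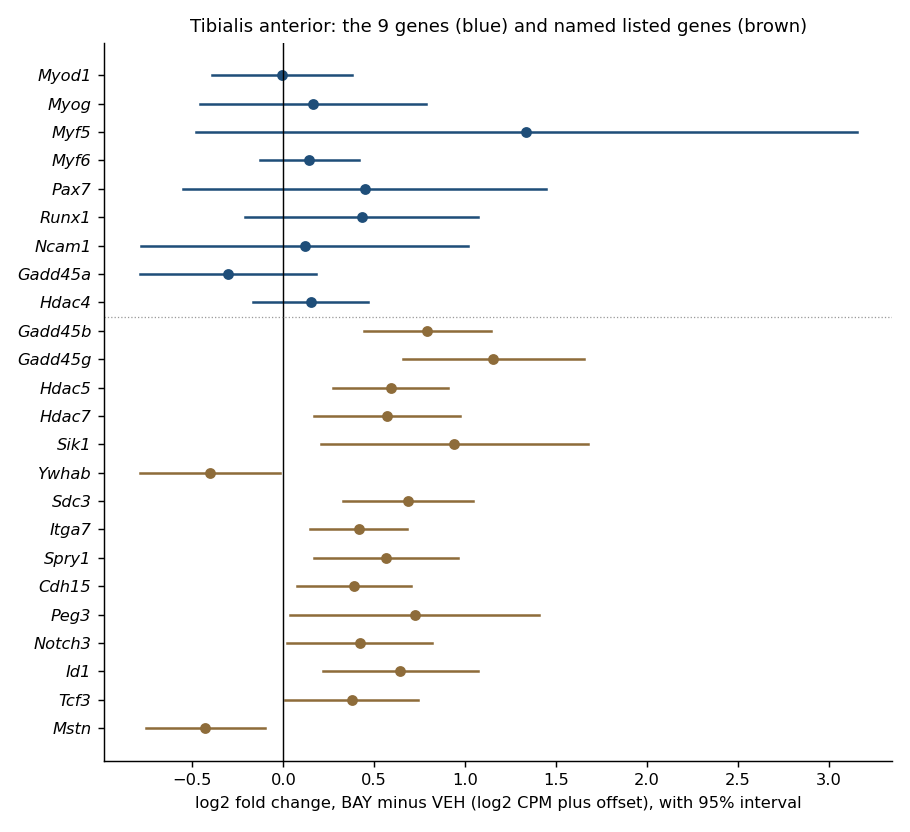
Log2 fold change of BAY against VEH in the TA with its 95% interval from limma, for the 9 genes (blue) and for the listed genes with an unadjusted P value under 0.05 (brown). Every blue interval crosses 0, and among the brown ones Gadd45g has the highest value at 1.16 and Mstn the lowest at -0.43.

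Both relatives of Gadd45a and 2 of 3 class IIa relatives of Hdac4 were higher in BAY-treated mice at the unadjusted threshold. A list of 19 relatives and partners of Runx1, Ncam1, Gadd45a and Hdac4 was also chosen with earlier results of these data known, so its counts are a description. Of the 17 in the muscle table, 5 were higher and 1 was lower at an unadjusted P value under 0.05 in limma. Over all genes, 6.71% were higher and 3.07% lower at that threshold. The 5 were Gadd45b, Gadd45g, Hdac5, Hdac7 and Sik1, and the 1 was Ywhab, a 14-3-3 protein of the kind that holds phosphorylated class IIa deacetylases in the cytoplasm. Ywhab had a log2 fold change of -0.40 and lost the threshold under 9 of the 17 other settings, including each mouse left out in turn except VEH replicate 4, with -0.23 (unadjusted P = 0.126 in limma) without VEH replicate 3. Without that mouse the counts were 5 and 0. The median of the list was 0.16 against 0.06 over all genes. It was 0.07 against -0.01 without VEH replicate 1, and 0.10 against 0.02 without BAY replicate 3.

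Gadd45b (ENSMUSG00000015312, chromosome 10, 80765907 to 80768038), a stress-induced gene close in sequence to Gadd45a, measured 13.6, 14.5, 10.9 and 14.3 CPM in VEH and 25.9, 18.1, 27.1 and 21.9 CPM in BAY mice. Gadd45g (ENSMUSG00000021453, chromosome 13, 52000714 to 52002504), the remaining gene of the family, measured 10.4, 17.4, 10 and 14.8 CPM in VEH and 30.4, 20.5, 24.8 and 42.8 CPM in BAY mice. For both genes every BAY-treated mouse lay above every VEH-treated mouse. The log2 fold changes were 0.79 (SE 0.16) for Gadd45b and 1.16 (SE 0.23) for Gadd45g, and limma gave both an adjusted P value of 0.206.

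Hdac5 (ENSMUSG00000008855, chromosome 11, 102085258 to 102120992), a class IIa deacetylase like Hdac4, measured 34.7, 56.9, 47.3 and 43.3 CPM in VEH and 63.7, 63.3, 67.5 and 76.4 CPM in BAY mice, without overlap, with a log2 fold change of 0.59 (SE 0.15, adjusted P = 0.283 in limma). Hdac7, another deacetylase of the class, ranged from 11.8 to 23.3 CPM in VEH and from 20.5 to 26.3 CPM in BAY mice, with a log2 fold change of 0.57 (adjusted P = 0.358 in limma). Hdac9, a class IIa deacetylase known to fall in denervated muscle and kept in the list of denervation genes, measured 10.6, 18.5, 19.3 and 14 CPM in VEH and 15.4, 11.7, 16.9 and 12.2 CPM in BAY mice, all BAY values inside the VEH range, with a log2 fold change of -0.13 (unadjusted P = 0.544 in limma). Sik1, a kinase that phosphorylates class IIa deacetylases, ranged from 7.22 to 15.3 CPM in VEH and from 10.6 to 40.4 CPM in BAY mice. Gadd45b, Gadd45g, Hdac5 and Hdac7 kept an unadjusted P value under 0.05 in limma under each of the 17 other settings, including each mouse left out in turn, while Sik1 lost it without a trend and without VEH replicate 1, BAY replicate 3 or BAY replicate 4.

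Whether these relatives differed from the member of their family was tested within each library, where the scaling of a library cancels. This test was chosen after the values were seen and covered 7 pairs, each paralog of Pax7, Runx1, Gadd45a or Hdac4 that the lists and the muscle table held. The log2 difference of Gadd45b minus Gadd45a ranged from -0.96 to 0.09 in VEH and from 0.17 to 1.25 in BAY mice, a shift of 1.10. That of Gadd45g minus Gadd45a ranged from -1.07 to 0.11 in VEH and from 0.79 to 1.14 in BAY mice, a shift of 1.46. For the deacetylases the shifts were smaller: 0.44 for Hdac5 minus Hdac4, from -0.99 to -0.69 in VEH and from -0.54 to -0.43 in BAY mice, and 0.42 for Hdac7 minus Hdac4. In these 4 pairs the groups did not overlap (two-sided exact permutation P = 0.0286, which is the lowest value possible with 4 mice against 4, and 0.05 after Benjamini-Hochberg adjustment over the 7 pairs, not below the threshold). The 4 relatives had already been seen to be higher in BAY-treated mice, so these P values are a description and not separate support. How often other gene pairs show no overlap was not computed. The log2 difference of Runx2 minus Runx1 overlapped, from -2.97 to -1.13 in VEH and from -2.58 to -1.98 in BAY mice, and the change of -0.21 was within the spread (exact permutation P = 0.686). Runx2 rested on 6 to 15 reads a library. Hdac9 minus Hdac4 went the other way from Hdac5 and Hdac7, by -0.28 (exact permutation P = 0.314), with -2.69 to -1.99 in VEH and -3.10 to -2.43 in BAY mice. Pax3 minus Pax7 changed by -0.09 (exact permutation P = 0.914), and its groups overlapped as well.

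**Figure D4:**
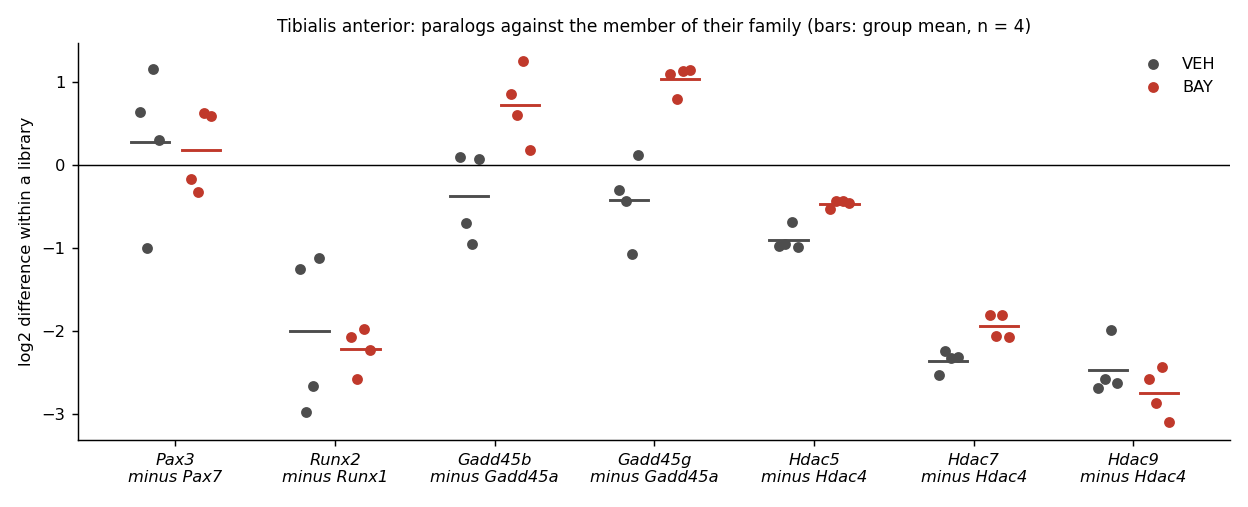
Log2 difference within a library between a paralog and the member of its family in the TA, 1 point per mouse (VEH grey, BAY red), with bars at the group means. For Gadd45b, Gadd45g, Hdac5 and Hdac7 the lowest BAY value lies above the highest VEH value, whereas the groups overlap for Pax3, Runx2 and Hdac9.

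A list of 22 other genes of the denervation response held mostly genes known to rise when the nerve is lost, such as acetylcholine receptor subunits, together with Hdac9 and Dach2, known as repressors that fall. Of the 22 genes, 0 were higher and 0 were lower at an unadjusted P value under 0.05 in limma, against 6.71% and 3.07% of all genes. With limma voom on the recovered reads, 0 were higher and 1 was lower, Fbxo32. The median log2 fold change was -0.19 against 0.06 over all genes, and 8 of the 22 genes had a value above 0. The list median was -0.04 without VEH replicate 3, -0.05 without VEH replicate 2 or BAY replicate 2, and -0.31 without VEH replicate 1. All genes had 0.12, 0.08 and -0.01 in these fits. Fbxo32, the ubiquitin ligase atrogin-1, measured 301, 376, 491 and 298 CPM in VEH and 237, 254, 272 and 374 CPM in BAY mice, an overlap made by BAY replicate 4 (unadjusted P = 0.0769 in limma, named after its values were seen). Trim63, or MuRF1, the ligase usually measured beside it, ranged from 93.4 to 103 CPM in VEH and from 93.8 to 144 CPM in BAY mice. Chrna1, the acetylcholine receptor alpha subunit, ranged from 3.96 to 9.9 CPM in VEH and from 4.4 to 6.45 CPM in BAY mice, and Musk, its clustering kinase, from 6.44 to 10.9 CPM and from 4.24 to 9.12 CPM. These 3 genes were also named after their values were seen, and each overlapped between the groups.

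The genes whose levels followed those of a member most closely over the 8 muscle libraries were sought among 7556 protein-coding genes with at least 5 CPM. Runx1 was followed by Nol6 (Pearson r = 0.975, Spearman rho = 0.952) and Aagab (r = 0.975, rho = 0.905), and Ncam1 by Adprh (r = 0.974, rho = 0.976) and Nkain1 (r = 0.966, rho = 0.905). For Hdac4 they were Ints14 (r = 0.979, rho = 0.881) and Arglu1 (r = 0.939, rho = 0.952), and for Gadd45a Reps1 (r = 0.964, rho = 0.905) and Nop14 (r = 0.943, rho = 0.857). Myf6 was followed by Plpp7 (r = 0.955, rho = 0.952) and Nt5c1a (r = 0.951, rho = 0.762), and Myod1 by Psma7 (r = 0.948, rho = 0.833) and Lamtor4 (r = 0.939, rho = 0.929). Without the 2 libraries farthest from the median of the member, r ranged from 0.716 for Nt5c1a to 0.985 for Arglu1. The 8 points share libraries and depth, and the highest of 7556 correlations over so few points is high by selection, so these pairs are a description.

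In cortical bone, all 9 genes were also listed. At an unadjusted P value under 0.05 in limma, 0 of the 9 genes passed, against 0.64% of all genes in the bone table, whose log2 fold changes had a median of 0.84. That median rested on single libraries and was -0.09 without VEH replicate 1 and 1.52 without VEH replicate 2. The bone libraries differed in what they held: the 12 muscle fibre markers summed to 37.1 to 9226 CPM in VEH and 84.2 to 42584 CPM in BAY mice, and the 10 osteoblast and osteocyte markers to 1084 to 23127 CPM in VEH and 1198 to 16698 CPM in BAY mice. The part of these differences in the levels below was not tested. VEH replicate 1 also stood apart from the other bone libraries over all genes, and without it 0 of the 9 genes passed. With limma voom on the recovered reads 1 gene passed, Pax7 (unadjusted P = 0.0445), as did 3.68% of all genes, whose median was then 1.03. Without VEH replicate 2 Pax7 and Myod1 passed (unadjusted P = 0.0424 and 0.0482 in limma), as did 2.87% of all genes. Over all settings run, the log2 fold changes lay between 0.23 and 2.01 for Pax7 and between 0.09 and 1.55 for Myod1.

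Myf6 measured 24.1, 22.7, 3.06 and 8.6 CPM in BAY mice, whose fibre markers summed to 38774, 42584, 1474 and 84.2 CPM. Its highest values were thus in the libraries with the highest sums. Replicates 3 and 4 rested on 6 and 8 reads of Myf6, too few to order them. In VEH mice it measured 4.46, 11, 2.83 and 5.1 CPM, from 7 to 31 reads, and the fibre markers summed to 9226, 253, 85.6 and 37.1 CPM. Its log2 fold change was 1.09 (SE 0.97, unadjusted P = 0.282 in limma), and 0.23 to 1.3 over the other settings that kept all mice.

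Myod1 measured 5.18, 41.4, 6.02 and 14.6 CPM in VEH and 26.4, 31, 13.2 and 23.6 CPM in BAY mice, and its highest value was in VEH replicate 2, where the fibre markers summed to 253 CPM. Its log2 fold change was 0.94 (SE 0.78, unadjusted P = 0.249 in limma). Pax7 measured 1.73, 39.6, 7.09 and 21.1 CPM in VEH and 28.6, 20.7, 15.3 and 48.4 CPM in BAY mice, with its highest value in BAY replicate 4, where they summed to 84.2 CPM. Its log2 fold change was 1.35 (SE 0.93, unadjusted P = 0.17 in limma). VEH replicate 2 and BAY replicate 4 were also the shallowest bone libraries, at 1086220 and 930307 reads. Myog measured 1.01 to 18.4 CPM and Myf5 0 to 12 CPM across the 8 bone libraries, from 3 to 20 and 0 to 13 reads, with the highest values of both in VEH replicate 2 and BAY replicate 4. For Myog the log2 fold change was 0.67 (SE 1.39, unadjusted P = 0.639 in limma).

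To place these levels, they were set beside the pooled level of 1135 protein-coding olfactory receptor genes (Olfr symbols), best known from the sensory cells of the nose, in the same library. This comparison was chosen after the values were seen. In muscle, 39 such genes pooled to 0.111 to 0.16 CPM per kb. In bone they pooled to 0.129 CPM per kb in VEH replicate 1 and to 1.39 to 8.97 CPM per kb in the other 7 libraries. Per kilobase, Myf5 was below the Olfr level in all 8 bone libraries, Pax7 and Myog were above it in 3 of 8, with median ratios of 0.954 and 0.953, and Ncam1, Hdac4 and Myf6 were above it in 4, 5 and 5 of 8. Only Runx1 and Myod1 were above it in all 8 libraries, with median ratios of 2.19 and 2.8, and Gadd45a in 7 of 8, at 2.14. Pax7, Myog and Myf5 were thus at or below the Olfr level in most bone libraries, and the source of these reads was not tested.

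**Figure D5:**
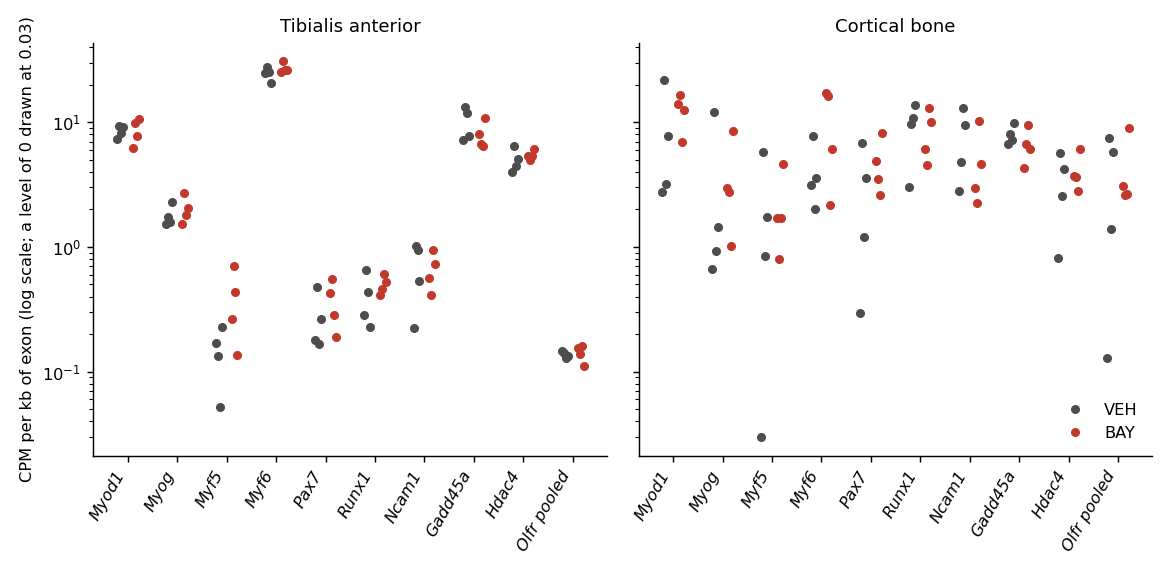
Level in CPM per kb of exon (log axis) of the 9 genes and of the pooled Olfr genes in the TA (left) and cortical bone (right), 1 point per mouse (VEH grey, BAY red), with Myf5 in VEH replicate 1 of bone, at 0, drawn at 0.03. In the TA the genes spread from 0.0518 to 30.7 CPM per kb and those of every member but Myf5 lie above the highest Olfr level of 0.16, whereas in bone the Olfr level reaches 8.97 CPM per kb and overlaps the range of every member.

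Runx1, which in bone marrow and periosteal cells has roles in blood and skeletal development, was above the Olfr level in every bone library. It measured 38.6, 123, 138 and 175 CPM in VEH and 77.3, 57.1, 163 and 127 CPM in BAY mice. VEH replicate 1 and BAY replicates 1 and 2, the libraries with the most fibre marker reads, had its 3 lowest values. Its log2 fold change was -0.08 (SE 0.61), and its direction turned to 0.11 with limma voom. Over the other settings that kept all mice, the lowest value was -0.93.

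Ncam1, which osteoblasts also make, measured 24.7, 42.3, 113 and 83.7 CPM in VEH and 25.9, 19.9, 90.6 and 40.8 CPM in BAY mice. Its 3 highest values lay in VEH replicates 3 and 4 and BAY replicate 3, the 3 libraries in which osteoblast and osteocyte markers summed to the most, 23127, 15744 and 16698 CPM. The groups overlapped, with a log2 fold change of -0.60 (SE 0.67, unadjusted P = 0.391 in limma) that was -0.26 without VEH replicate 3, -1.02 without BAY replicate 3 and -1.45 with median centring.

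Gadd45a was the most even of the members in bone, at 11.8, 14.3, 12.7 and 17.5 CPM in VEH and 7.6, 11.9, 16.8 and 10.7 CPM in BAY mice. Hdac4 measured 14, 97.6, 43.9 and 72.1 CPM in VEH and 63.9, 62, 47.9 and 105 CPM in BAY mice, with its lowest value, like that of Myod1, in VEH replicate 1. Neither Gadd45a nor Hdac4 differed beyond the spread between mice, with log2 fold changes of -0.30 (SE 0.67) and 0.55 (SE 0.65). That of Gadd45a was -0.11 without BAY replicate 1, -0.49 without BAY replicate 3 and -1.15 with median centring, and that of Hdac4 was -0.02 without VEH replicate 1. The muscle and bone tables were normalized separately, and no member was compared between the tissues.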

How the data were processed

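TA muscle and cortical bone RNA was sequenced from 4 VEH-treated and 4 BAY-treated mice per tissue. Reads were trimmed by the authors and mapped to mm39 with STAR (version 2.7.8a), and Ensembl release 104 genes were counted by the E/M method of Partek. To the resulting CPM the authors added an offset (0.0004 CPM in muscle, 0.0001 in bone, read from the lowest values), and the deposited values are log2 of this sum. Muscle libraries were poly(A)-selected. CPM was obtained by undoing the deposited log2 and offset. Reads were recovered from the steps between low values, with 81.4% to 88.5% of values up to 50 reads whole to within 0.02 read, and genes had at least 5 reads over the 8 libraries of a tissue.

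BAY was compared with VEH per tissue with limma (version 3.58.1, R version 4.3.3), lmFit and eBayes with a trend on the deposited log2 values, two-sided, with no filter and Benjamini-Hochberg adjustment over all genes, and with an exact permutation of the 8 libraries per member. Remaining steps ran in Python (3.11.15) with pandas 2.3.3, scipy 1.17.1 and matplotlib 3.10.9. Fits were tested on simulated data. Exon lengths, for CPM per kb, and start sites came from GENCODE M39, with the exons of all transcripts of a gene merged for its length. Listed genes are named where their unadjusted P value was under 0.05 in muscle. Some others that did not pass are named too, such as Hdac9, Runx2, Pax3, Chrdl2 and Fbxo32. Bone members with a mean of at least 5 CPM are given with a log2 fold change and its SE. Alternatives were other pseudocounts, a filter at 1 CPM, other scalings and variance models, voom on the recovered reads, the replicate block and each mouse left out. The members and lists were chosen with earlier results of these data known. Other tissues, assays and authors' comparisons were not used here.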

Additional observations from a re-analysis of the deposited data

Results flagged for a closer look

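Groups of 4 values were searched for a mouse that lay far from the other 3 of its group, in 66 groups over the 9 genes and the named listed genes, and 3 were found. Chance alone is expected to mark about 5% of such groups. In muscle, Mstn measured 13.3 CPM in BAY replicate 4 against 19.1 to 20.1 CPM in the other BAY-treated mice. Without that mouse, the log2 fold change of Mstn was -0.29. Also in muscle, Sik1 measured 7.22 CPM in VEH replicate 1 against 13.6 to 15.3 CPM in the other VEH-treated mice. In cortical bone, Myf5 was listed at 0 CPM in VEH replicate 1 against 1.77 to 12 CPM in the other VEH-treated mice. That library was the deepest of the bone libraries and had the lowest Olfr level, 0.129 CPM per kb.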

How the results depend on the processing

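The 9 genes in muscle stayed at 0 past an unadjusted P value of 0.05 in limma under the other settings except log2(CPM + 1), where it was 1 (Myf5), and 0 to 1 with each mouse left out (1, Runx1, without VEH replicate 2). Of myogenic partners and targets, 1 was higher with a filter at 1 CPM or no trend (1 to 3 with a mouse left out) and 2 were lower with quantile normalization. In the satellite cell list 1 gene, Sdc4, was lower with median centring or quantile normalization, and 4 to 8 genes were higher over the other settings. Of the denervation list, 1 gene was lower (Fbxo32) with log2(CPM + 1), median centring, quantile normalization, voom or array weights, 2 with log2(CPM + 0.1) (Fbxo32 and Actc1), and 0 to 2 with a mouse left out. The relatives had 2 lower genes with median centring, 3 with quantile normalization, 0 with no trend or array weights and 0 to 2 with a mouse left out. In bone, 1 of the 9 genes passed with voom (Pax7) and 0 to 2 with a mouse left out (Myod1 and Pax7 without VEH replicate 2). The cause of these changes was not tested.

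Directions turned for Myod1 in muscle (-0.12 to 0.14 with a mouse left out), Ncam1 in muscle (-0.34 to 0.39), Myog in bone (-0.18 with median centring, -0.88 with array weights), Runx1 in bone (0.11 with voom, -0.56 to 0.18 with a mouse left out) and Hdac4 in bone (-0.30 with median centring, -0.19 with array weights, -0.02 to 0.92 with a mouse left out). With a mouse left out and no change of direction, log2 fold changes in muscle ranged from 0.01 to 0.29 for Myog, 0.90 to 1.76 for Myf5, 0.06 to 0.20 for Myf6, -0.46 to -0.15 for Gadd45a and 0.05 to 0.28 for Hdac4, and in bone from 0.15 to 1.58 for Myog and 0.71 to 1.70 for Myf6. The median log2 fold change of all bone genes, 0.84, was -0.09 to 1.52 with a mouse left out. Array weights moved it to -0.33, and their fit gave a convergence warning. With a mouse left out, the shifts within a library ranged from 0.904 to 1.281 for Gadd45b, 1.245 to 1.641 for Gadd45g, 0.411 to 0.51 for Hdac5, 0.359 to 0.462 for Hdac7, -0.382 to -0.116 for Hdac9, -0.534 to 0.082 for Runx2 and -0.518 to 0.2 for Pax3. With 3 mice against 4 the exact permutation P values of these shifts are coarse. They stayed under 0.05 in 8 of 8 cases for Gadd45g and Hdac7. For Hdac5 they did so in 4 of 8 (up to 0.0571) and for Gadd45b in 2 of 8 (up to 0.0857). The filter at 1 CPM left out Myf5 in muscle.

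The replicate numbers in the labels belong to different mice, and same-numbered libraries correlated at -0.09 to 0.01 in muscle and at -0.11 to 0.19 in bone, where 2 of 4 matched best with their own number, so the numbers did not pair the samples. With the replicate block, 0 of the 9 genes in muscle and 0 in bone passed, and 1778 muscle genes against 2056 did. Depth limits Myf5 and Pax7 in muscle and Myog, Myf5 and Myf6 in bone, where single libraries held under 10 reads.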
